A study of Homo sapiens with 18 samples.

Results

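The hypoxia-inducible factor (HIF) genes and their targets described here are 10 of the 62703 genes measured in MDA-MB-231 cells: HIF1A and EPAS1, which encode the oxygen-regulated subunits HIF-1α and HIF-2α, and 8 genes known to be induced by them, VEGFA, ADM, CA9, BNIP3, BNIP3L, NDRG1, EGLN3 and ANKRD37. They were chosen by name for this known role, with earlier results of these data known. When E2F1 was depleted, 7 of the 10 transcripts fell and none rose, where 16.5% of all genes tested fell and 13.6% rose. When EZH2 was depleted, 4 rose and 1 fell, where 20.2% of all genes rose and 21.5% fell. When the enzymatic activity of EZH2 was inhibited, none of the 10 passed the test, and none of all 14632 genes tested did. With the replicate number added to the fit, 6 of the 10 passed, none over 2-fold, where 3.64% of all genes passed higher and 4.32% lower. That fit leaves 1 residual degree of freedom, and the labels do not say that the replicate numbers pair the libraries.

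In well-oxygenated cells, prolyl hydroxylases of the EGLN family mark the HIF subunits, the VHL ubiquitin ligase binds the marked protein, and the protein is destroyed within minutes. When oxygen is low the subunits persist, pair with ARNT and bind a short DNA core in the control regions of genes for angiogenesis, acid balance, glycolysis and mitochondrial turnover. HIF activity is therefore set mostly at the level of protein stability, which RNA sequencing does not measure, and the pathway is often active in solid breast tumours.

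MDA-MB-231 is a long-established human cell line from a triple-negative breast cancer, grown here without a labelled change of oxygen. In the knockdown experiment, cells took up lentivirus for 24 h and were selected in puromycin (2 ug/ml) for 72 h. The virus carried a control hairpin (Control shRNA), a hairpin against EZH2 (shEZH2), the catalytic subunit of Polycomb repressive complex 2, or a hairpin against E2F1 (shE2F1), a transcription factor of the cell cycle. Virus and selection were shared by the control, and each target was depleted with 1 hairpin in 1 cell line. In the drug experiment, cells with no virus named in the labels were exposed for 72 h to GSK126, an inhibitor of the EZH2 methyltransferase, at 1 uM, or to its solvent DMSO. Each of the 5 groups had 2 distinct libraries. As nothing in the labels says that these came from separate cultures, p-values measure the spread between these libraries, which may be technical. In bulk RNA, fewer cells that express a gene and less of its RNA per cell cannot be told apart.

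Libraries held 13198932 to 20055550 expected counts, the estimated number of reads per gene. Levels below are normalized counts (CPM), scaled to library size and by the trimmed mean of M-values (TMM). EZH2 measured 153 and 181 CPM with the control hairpin and 52.7 and 44.8 CPM with its own. In shE2F1, EZH2 was at 121 and 137 CPM, below both control libraries. E2F1 was at 143 and 138 CPM in the control and at 26.0 and 22.5 CPM in shE2F1, and it was at 62.5 and 32.3 CPM in shEZH2, so that the EZH2 hairpin came with less E2F1 as well (log2 change -1.59 ± 0.23 (SE), adjusted p = 0.000172). VIM, CD44 and AXL, which mark this line, were present in every library, PGR was at 0 in all, and ESR1 was at most at 0.216 CPM. ERBB2, which encodes HER2, was present at 46.1 to 90.3 CPM and fell in shEZH2 (log2 change -0.73). CDH1, the epithelial cadherin, was at 0.180 to 0.848 CPM in the control and rose in shEZH2 (log2 change 2.23) and more in shE2F1 (3.91, to at most 9.83 CPM), and VIM fell in shEZH2 (-1.33). CD44 did not pass in either. The leukocyte and endothelial markers PTPRC, CD3E, PECAM1 and CDH5 were at or below 1.35 CPM throughout. VWF reached 2.65 CPM and rose in shEZH2 (log2 change 3.45) and shE2F1 (2.43), and AXL fell in both (-1.83 and -2.23). The part of these shifts in the results below was not tested.

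RefSeq promoter windows (GRCh38.p14) were used for 6 of the 10 genes, EPAS1, CA9, ADM, BNIP3, EGLN3 and ANKRD37. The core that HIF binds, ACGTG or GCGTG on either strand, was searched in the 250 bases before the RefSeq gene start. It occurs in 43.2% of 35116 such windows of all genes. For EPAS1, ANKRD37 and EGLN3 the window lies inside the wider gene span of GENCODE, which is the span given for each gene below. The stretches around the cores are printed 5′ to 3′ on the gene strand, since these letters are what defines a candidate HIF site, with the core (or its complement) in capitals.
EPAS1: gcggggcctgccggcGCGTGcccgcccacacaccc
ADM: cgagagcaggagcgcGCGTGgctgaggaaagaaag
CA9: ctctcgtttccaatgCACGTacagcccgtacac
ANKRD37: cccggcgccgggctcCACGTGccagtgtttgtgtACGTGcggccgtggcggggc
BNIP3: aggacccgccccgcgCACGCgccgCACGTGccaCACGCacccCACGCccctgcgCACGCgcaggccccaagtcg
The stretches lie at chr2:46297275-46297309 (EPAS1), chr11:10304957-10304991 (ADM), chr9:35673895-35673927 (CA9), chr4:185396664-185396717 (ANKRD37) and chr10:131982008-131982081 (BNIP3, minus strand). EPAS1, ADM and CA9 each held 1 core, and that of CA9 lies nearest to the gene start, at position -18. BNIP3 held 6 and ANKRD37 3, counting the palindrome CACGTG as 1 core on each strand, and 0.646% of all windows held at least 6 and 7.76% at least 3. The window of EGLN3 held none. An E2F-like sequence, TTTGGCGC or TTTCCCGC on either strand, was in none of these upstream windows and in 1.93% of all. A match is a description of letters and not of binding.

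**Figure D1:**
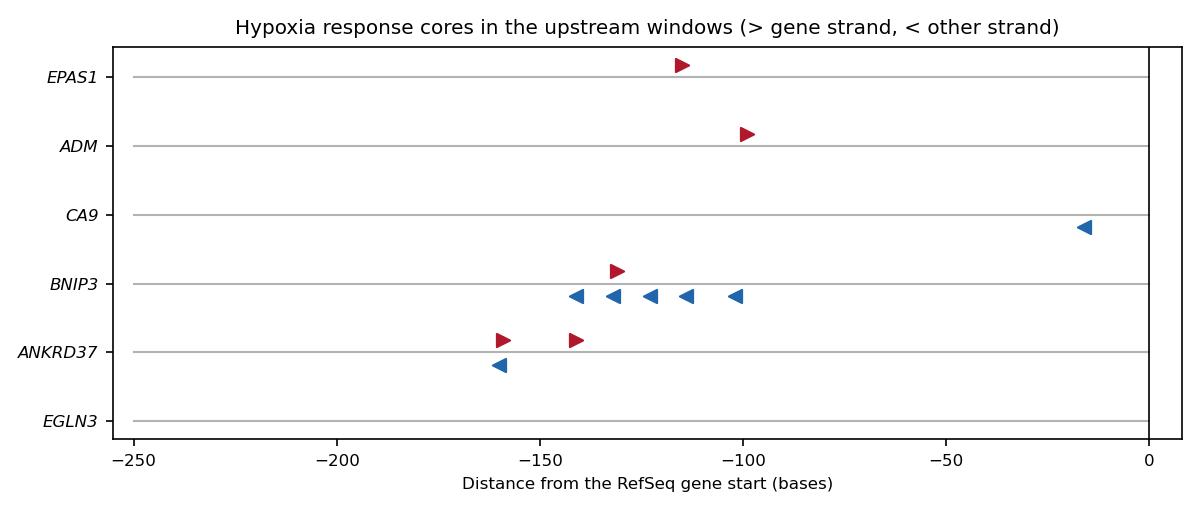
Positions of the hypoxia response core in the 250 bases before the RefSeq gene start of 6 genes. The x axis is the distance from the gene start in bases, and triangles point along the gene strand (red) or against it (blue). The 6 cores of BNIP3 lie close together, and EGLN3 has none.

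Among the 15373 genes tested in the knockdown experiment, a gene is said to rise or fall at an adjusted p under 0.01 (edgeR quasi-likelihood test, Benjamini-Hochberg adjustment over all genes) and is called higher or lower when it also changed more than 2-fold. In shEZH2 against the control, 4 of the 10 genes rose and 1 fell, where 20.2% of all genes rose and 21.5% fell. Of these, NDRG1 and EGLN3 were called higher and none lower, beside 7.52% and 10.7% of all genes. In shE2F1 against the control, 0 rose and 7 fell, where 13.6% of all genes rose and 16.5% fell, and 4 were called lower (EPAS1, VEGFA, ADM and CA9), beside 5.60% called higher and 5.96% called lower over all genes. The median log2 change of the 10 was 0.27 in shEZH2 and -0.63 in shE2F1, and over all genes it was -0.02 and -0.000492. Both comparisons share the control libraries. On the TPM scale with limma, the falls of HIF1A (adjusted p = 0.0954), BNIP3 (0.0149) and BNIP3L (0.139) in shE2F1 and of EPAS1 in shEZH2 (0.0907) did not pass, and VEGFA in shEZH2 did (log2 change 0.54, adjusted p = 0.00537). In the direct comparison of shEZH2 with shE2F1, all 10 differences were positive and 8 passed, where 23.3% of all genes were higher and 23.2% lower at that threshold. In it, 5 were called higher in shEZH2 (VEGFA, ADM, CA9, BNIP3L and NDRG1), beside 10.4% called higher and 12.9% called lower over all genes.

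**Figure D2:**
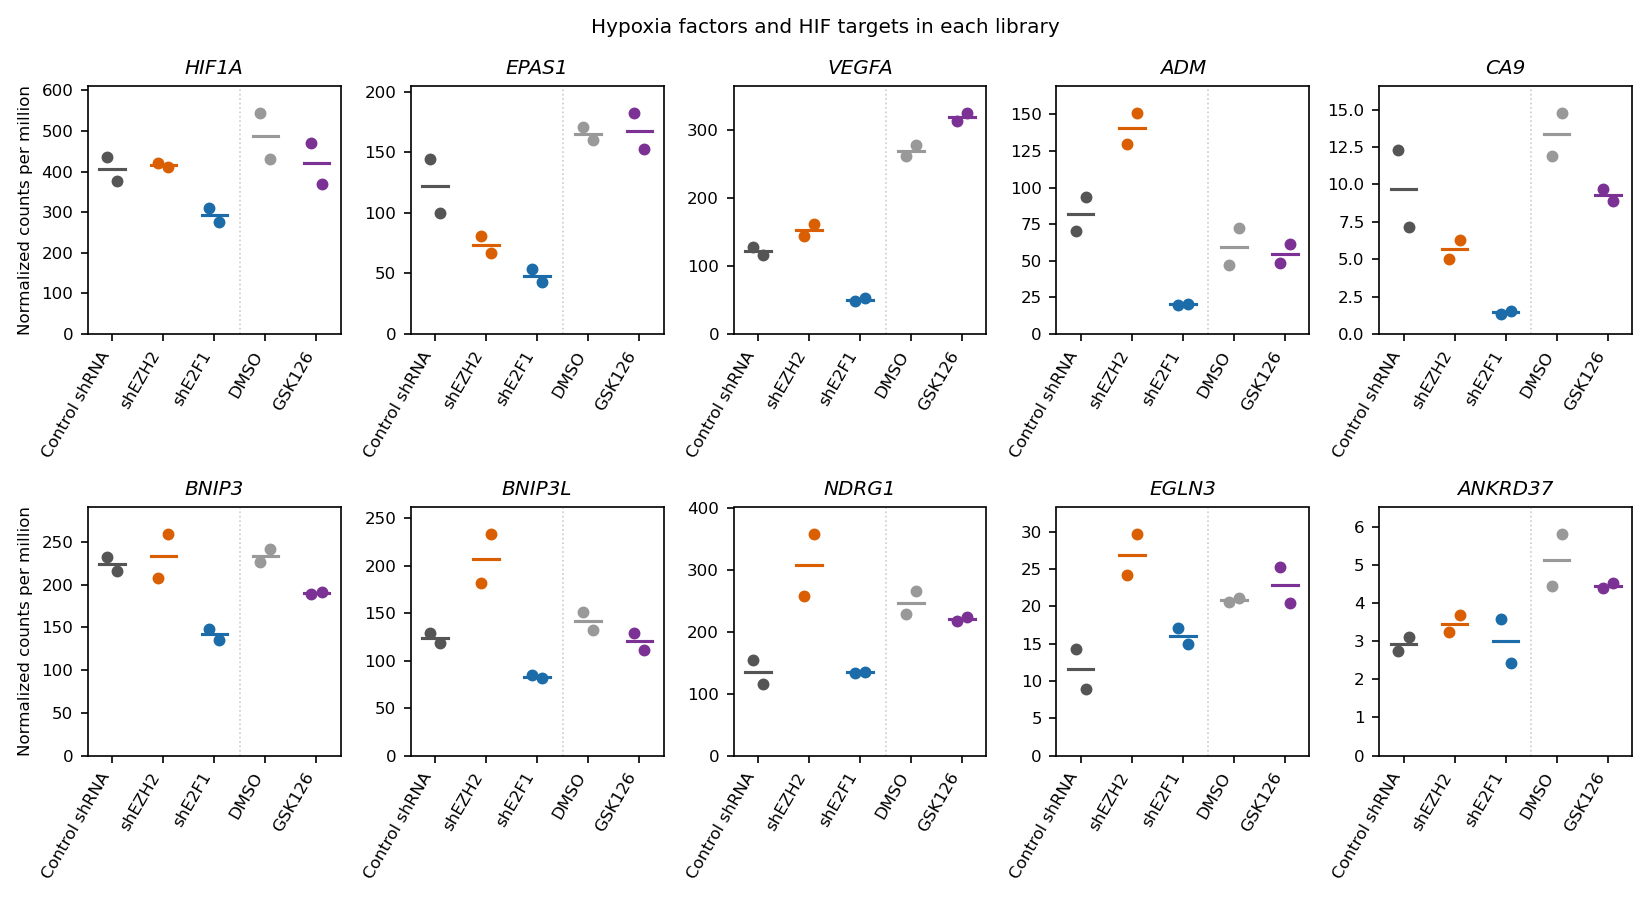
Level of each gene in each of the 10 libraries. The y axis is the normalized count in CPM, points are libraries, bars are means of 2, and a dotted line separates the knockdown from the drug experiment. EPAS1, VEGFA, ADM and CA9 are lowest in both shE2F1 libraries, and NDRG1 and EGLN3 are highest in shEZH2 within the knockdown experiment.

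HIF1A, on chromosome 14 (61695513-61748259, plus strand), encodes the subunit found in most cell types. It was at 435 and 377 CPM in the control, at 420 and 411 CPM in shEZH2 and at 311 and 276 CPM in shE2F1. Both shE2F1 libraries lay below all other libraries of the experiment, and the shEZH2 libraries lay between the control libraries. In shE2F1, HIF1A fell by 0.48 on the log2 scale (SE 0.10, adjusted p = 0.00321), or 1.39-fold. The fall no longer passed without control replicate 1 (adjusted p = 0.0136) or either shE2F1 replicate (0.0137 and 0.0611). In shEZH2, the log2 change was 0.02 (95% interval -0.20 to 0.24). Between the hairpins HIF1A differed by 0.50 (SE 0.10, adjusted p = 0.00156), and by 0.36 (adjusted p = 0.0161) once GC content and length were corrected. Exons of the long noncoding RNAs HIF1A-AS1 and HIF1A-AS3 overlap HIF1A on the other strand, and those of an unnamed long noncoding RNA on the same strand. Of the 50-base stretches of HIF1A, 3.27% also occur in other genes, mostly that unnamed RNA.

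EPAS1, on chromosome 2 (46293667-46386697, plus strand), encodes HIF-2α, which is prominent in endothelium and in clear cell kidney cancer. It was at 145 and 100 CPM in the control, at 80.8 and 66.8 CPM in shEZH2 and at 53.3 and 43.3 CPM in shE2F1. The 3 groups did not overlap. EPAS1 fell by 1.35 on the log2 scale in shE2F1 (SE 0.17, adjusted p = 0.000126) and by 0.75 in shEZH2 (SE 0.17, adjusted p = 0.00361). The latter fall did not pass without control replicate 1 (log2 change -0.46, adjusted p = 0.0277) or shEZH2 replicate 2 (-0.60, 0.0352). The difference between the hairpins, 0.60 (SE 0.17), did not pass (adjusted p = 0.0116). On the length-scaled TPM scale, HIF1A was 3.90 and 4.77 times as abundant as EPAS1 in the control libraries, 6.89 and 7.23 times in shEZH2 and 7.51 and 8.44 times in shE2F1. In the drug experiment this ratio was 4.18 and 3.31 with DMSO and 3.29 and 3.14 with GSK126.

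VEGFA, on chromosome 6 (43770184-43786487, plus strand), encodes the main angiogenic growth factor that hypoxic tumour cells secrete. It was at 129 and 117 CPM in the control, at 144 and 163 CPM in shEZH2 and at 48.2 and 53.2 CPM in shE2F1. VEGFA fell by 1.28 on the log2 scale in shE2F1 (SE 0.10, adjusted p = 6.47e-06), which is 2.44-fold. In shEZH2 the log2 change was 0.31 (SE 0.10) and did not pass (adjusted p = 0.0216), although both shEZH2 libraries were above both control libraries. Between the hairpins VEGFA differed 3.02-fold (log2 difference 1.60, SE 0.10, adjusted p = 7.17e-07).

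ADM, on chromosome 11 (10305073-10307397, plus strand), encodes adrenomedullin, a secreted peptide that dilates vessels. It moved in opposite directions under the hairpins. ADM was at 70.7 and 93.7 CPM in the control, rose to 130 and 151 CPM in shEZH2 and fell to 20.1 and 20.4 CPM in shE2F1. The groups did not overlap. The log2 change was 0.76 in shEZH2 (SE 0.13, adjusted p = 0.000561) and -2.02 in shE2F1 (SE 0.14, adjusted p = 2.72e-06), a fold of 1.70 up and 4.07 down. The direct difference, 2.79 (SE 0.14, adjusted p = 2.34e-07) or 6.91-fold, was the largest of the 10 genes. After each library was corrected for GC content and gene length, the rise in shEZH2 was 1.18.

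CA9, on chromosome 9 (35673928-35681159, plus strand), encodes carbonic anhydrase IX, a membrane enzyme that acts in acid balance and is widely used as a tissue marker of hypoxia. It was among the rarest of the 10, with 28 to 262 counts per library. CA9 was at 12.3 and 7.14 CPM in the control, at 5.05 and 6.28 CPM in shEZH2 and at 1.34 and 1.56 CPM in shE2F1. The shE2F1 libraries were the lowest by a wide margin, and CA9 fell 6.74-fold there (log2 change -2.75, SE 0.31, adjusted p = 5.17e-05), the largest change of the 10 against the control. CA9 was 3.90-fold higher in shEZH2 than in shE2F1 (log2 difference 1.96, SE 0.32, adjusted p = 0.000355). In shEZH2 against the control, the log2 change was -0.79 (SE 0.27) and did not pass (adjusted p = 0.0286), except without control replicate 2 (-1.12), and without control replicate 1 it was -0.34. With each library corrected for GC and length, it was -0.30. CA9 transcripts are 59.9% G and C, and across all genes tested the change in shEZH2 was related to GC content (r = -0.24 over 15366 genes, which are not independent replicates), with r = -0.02 in shE2F1. Exons of ARHGEF39 overlap CA9 on the other strand, and whether counting used strand is not stated.

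BNIP3, on chromosome 10 (131967684-131981967, minus strand), and BNIP3L, on chromosome 8, encode related receptors of the outer mitochondrial membrane that direct mitochondria to autophagy. BNIP3 was at 232 and 216 CPM in the control, at 208 and 259 CPM in shEZH2 and at 148 and 135 CPM in shE2F1. It fell by 0.67 on the log2 scale in shE2F1 (SE 0.11, adjusted p = 0.000751), a fall that did not pass without shE2F1 replicate 2 (adjusted p = 0.0185). In shEZH2 its libraries lay on both sides of the control (log2 change 0.05, 95% interval -0.20 to 0.29). Between the hairpins it differed by 0.71 (SE 0.11, adjusted p = 0.000273). Of its 50-base stretches, 12.9% also occur in another gene, mostly the pseudogene BNIP3P1, so that part of its count is uncertain.

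BNIP3L was at 129 and 119 CPM in the control, at 182 and 233 CPM in shEZH2 and at 84.3 and 81.2 CPM in shE2F1. Like ADM, it rose in shEZH2 (log2 change 0.73, SE 0.12, adjusted p = 0.000366) and fell in shE2F1 (-0.59, SE 0.12, adjusted p = 0.00219), and the direct difference was 2.50-fold (log2 1.32, SE 0.12, adjusted p = 5.26e-06). The deposited effective length of BNIP3L, which depends on the isoforms in use, was 2117 to 2260 bases in the control, 2707 to 3001 in shEZH2 and 1965 to 1988 in shE2F1. With that length as an offset, neither change passed (0.36 with adjusted p = 0.0253, and -0.46 with 0.0107), while the direct difference did (0.82, adjusted p = 0.000227). The fall in shE2F1 also did not pass without control replicate 1 (adjusted p = 0.0109) or either shE2F1 replicate (0.0216 and 0.0325). On the length-scaled TPM scale, BNIP3 was 2.89 and 3.07 times as abundant as BNIP3L in the control, 2.34 and 2.50 times in shEZH2, and 2.63 and 2.48 times in shE2F1. Exons of PNMA2 overlap BNIP3L on the other strand.

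NDRG1, on chromosome 8, encodes a stress-responsive cytoplasmic protein and is a common member of hypoxia signatures. It was at 154 and 115 CPM in the control, at 258 and 358 CPM in shEZH2 and at 134 and 135 CPM in shE2F1. Both shEZH2 libraries were above all other libraries of the knockdown experiment, and the shE2F1 libraries lay between the control libraries. NDRG1 rose 2.27-fold in shEZH2 (log2 change 1.18, SE 0.16, adjusted p = 0.000124), and its log2 change in shE2F1 was -0.01 (95% interval -0.36 to 0.34). Between the hairpins NDRG1 differed 2.28-fold (adjusted p = 8.87e-05). The rise was just under 2-fold without control replicate 2 (log2 change 0.99) or shEZH2 replicate 2 (0.94), and it passed at the adjusted p in both cases. Of its 50-base stretches, 5.27% also occur in other genes, mostly an unnamed long noncoding RNA.

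EGLN3, on chromosome 14 (33924227-34462774, minus strand), encodes a prolyl hydroxylase that marks HIF subunits and is itself induced by HIF. It was at 14.3 and 8.94 CPM in the control, at 24.2 and 29.7 CPM in shEZH2 and at 17.0 and 15.0 CPM in shE2F1. EGLN3 rose 2.29-fold in shEZH2 (log2 change 1.19, SE 0.20, adjusted p = 0.000568), and by less than 2-fold without control replicate 2 (log2 change 0.91). In shE2F1 it was above both control libraries with a log2 change of 0.45 (SE 0.21) that did not pass (adjusted p = 0.0998), except without control replicate 1 (0.83, adjusted p = 0.00681), and without control replicate 2 it was 0.16. Between the hairpins EGLN3 differed by 0.75 (adjusted p = 0.00740), which no longer passed without shEZH2 replicate 2 or either shE2F1 replicate.

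ANKRD37, on chromosome 4 (185396021-185400628, plus strand), encodes a small ankyrin repeat protein and is induced by HIF in many lines. It was at 2.76 and 3.12 CPM in the control, at 3.24 and 3.69 CPM in shEZH2 and at 3.60 and 2.43 CPM in shE2F1, with 43 to 103 counts per library. The shE2F1 libraries lay on both sides of the control, and both shEZH2 libraries were above it. Exons of UFSP2 overlap ANKRD37 on the other strand. The log2 change was 0.23 in shEZH2 (95% interval -0.41 to 0.87) and 0.04 in shE2F1 (-0.60 to 0.67), and changes within these intervals were not excluded. ANKRD37 was the only gene of the 10 with no passing difference in any comparison of the knockdown experiment.

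**Figure D3:**
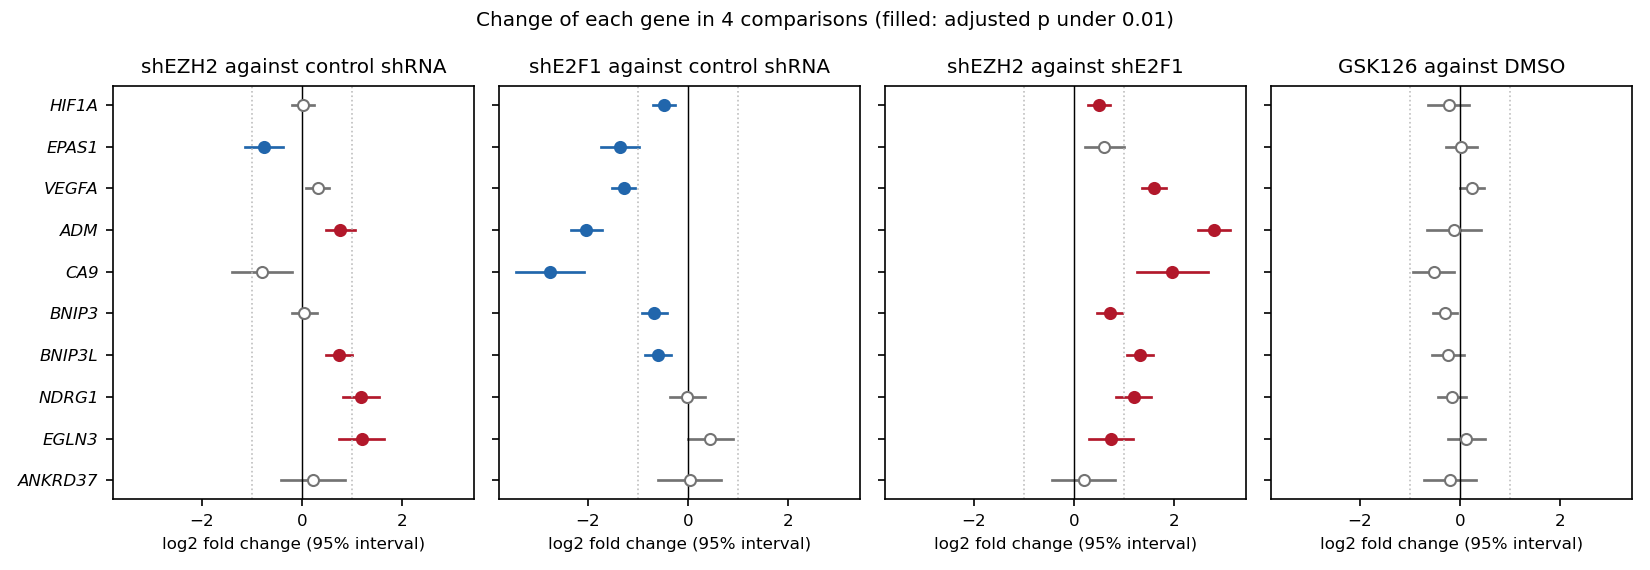
Log2 fold change of each gene in 4 comparisons. Points are estimates, lines are 95% intervals, filled points passed an adjusted p of 0.01 (red higher, blue lower), and dotted lines mark 2-fold. In shE2F1, 7 genes are filled on the lower side, and with GSK126 no point is filled.

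With GSK126, none of the 10 genes passed, and none of the 14632 genes tested did either (0% in each direction at both thresholds). By unadjusted p, 577 of these genes were under 0.05, and DESeq2 found 14 at an adjusted p under 0.01, 11 of them over 2-fold. With the replicate number as a block, 6 of the 10 passed, VEGFA higher and HIF1A, CA9, NDRG1, BNIP3 and BNIP3L lower, none of them over 2-fold, where 3.64% of all genes passed higher and 4.32% lower. The labels do not say that these numbers pair the libraries. The log2 changes of the 10 genes ran from -0.52 (CA9) to 0.25 (VEGFA) with a median of -0.18, and 3 had an unadjusted p under 0.05, with the adjusted p at 1.00 for all 10 (edgeR). CA9 was at 11.9 and 14.8 CPM with DMSO and at 9.67 and 8.90 CPM with GSK126 (95% interval of the log2 change -0.93 to -0.11). BNIP3 was at 227 and 241 CPM with DMSO and at 189 and 191 CPM with GSK126 (-0.54 to -0.05). VEGFA was at 262 and 278 CPM with DMSO and at 314 and 326 CPM with GSK126 (0.01 to 0.49). In each of these genes the GSK126 and DMSO libraries did not overlap, which was so for 15.2% of all genes tested on the higher side and 13.2% on the lower side.

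For the other genes the drug groups overlapped, except NDRG1 and BNIP3L. NDRG1 was at 229 and 266 CPM with DMSO and at 217 and 225 CPM with GSK126. BNIP3L was at 151 and 132 CPM with DMSO and at 129 and 112 CPM with GSK126. Neither of these differences passed the test. HIF1A was at 546 and 432 CPM with DMSO and at 470 and 370 CPM with GSK126, and replicate 2 was the lower library in both groups. Within replicate numbers the log2 difference of HIF1A was -0.21 and -0.22, and that of BNIP3L was -0.23 and -0.24. In the remaining genes libraries of both groups lay among each other. EPAS1 was at 170 and 160 CPM with DMSO and at 183 and 153 CPM with GSK126. ADM was at 46.9 and 72.4 CPM with DMSO and at 48.2 and 61.8 CPM with GSK126. EGLN3 was at 20.6 and 21.1 CPM with DMSO and at 25.3 and 20.5 CPM with GSK126, and ANKRD37 at 4.46 and 5.82 against 4.40 and 4.54 CPM. The intervals of all 10 changes lay within 1 on the log2 scale, the bound of a 2-fold change.

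Depletion and inhibition of EZH2 were compared by testing the shEZH2 change against that of GSK126, each relative to its own control, among 15773 genes. Of the 10 genes, 2 passed, both with the larger change in shEZH2, where 9.35% of all genes passed higher and 11.6% lower, and 1 was also over 2-fold, beside 5.13% higher and 8.67% lower over all genes. NDRG1 differed by 1.36 (SE 0.23, adjusted p = 0.000852) and BNIP3L by 0.98 (SE 0.19, adjusted p = 0.00180). EGLN3 (1.08, adjusted p = 0.0103), ADM (0.89, 0.0238) and EPAS1 (-0.76, 0.0272) did not pass. The count over 2-fold leaned on single libraries. Without 1 replicate the difference was 0.79 to 1.15 for BNIP3L, 0.78 to 1.46 for EGLN3 and 0.54 to 1.17 for ADM, on both sides of 1, the bound of a 2-fold change. BNIP3L no longer passed without control replicate 2 (0.92) or shEZH2 replicate 2 (0.79). Virus, selection and experiment differ between the comparisons along with the means of acting on EZH2, and cannot be told apart from it.

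Between genes, levels were compared in TPM, which is scaled by length. In the control libraries BNIP3 was highest at 236 ± 22.4 TPM (SD, n = 2), followed by HIF1A at 155 ± 22.1. ADM, BNIP3L, NDRG1 and VEGFA lay between 62.0 and 96.6 TPM and the ranges of ADM and VEGFA alone did not overlap among them, and EPAS1 was at 29.1 and 43.7 TPM. CA9 was at 9.18 and 14.2 TPM, and ANKRD37 and EGLN3, whose ranges overlapped, were lowest.

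Levels in the experiments' own controls are given side by side, and the difference between them was not tested. VEGFA was at 117 to 129 CPM with the control hairpin and at 262 to 278 CPM with DMSO, and NDRG1 at 115 to 154 and 229 to 266 CPM. The order of the 5 group means in CPM was that of TPM for 8 of the 10 genes. VEGFA was highest with GSK126 and DMSO, while ADM was highest in shEZH2 and lowest in shE2F1 of all groups. EPAS1, CA9, BNIP3, BNIP3L, HIF1A, VEGFA and ADM were all lowest in shE2F1, although only in the knockdown experiment is that group set against its own control.

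Other genes of the pathway were described from lists of known genes. Of 16 genes of the HIF machinery, which pair with, hydroxylate, degrade or coactivate the subunits, 15 were tested. In shEZH2, 7 rose and 1 fell (all genes 20.2% and 21.5%), and in shE2F1, 3 rose and 2 fell (all genes 13.6% and 16.5%), with medians of 0.32 and 0.03. The counts in shE2F1 were close to the shares over all genes. EGLN2, another prolyl hydroxylase, was the only one called in shEZH2 (log2 change -1.61, adjusted p = 3.52e-06), and it rose in shE2F1 (0.63). EGLN1, the main oxygen-sensing hydroxylase, and HIF1AN, the asparaginyl hydroxylase that blocks coactivator binding, were called higher in shEZH2 than in shE2F1 (log2 differences 1.51 and 1.25). Against the control, EGLN1 rose in shEZH2 (0.86) and fell in shE2F1 (-0.64), so that of the prolyl hydroxylases EGLN1 and EGLN3 rose in shEZH2 and EGLN2 fell. CITED2, which competes with HIF for its coactivators, was the only one called in shE2F1 (1.02).

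Of 34 other HIF targets, 17 rose and 3 fell in shEZH2, with a median of 0.48, where 20.2% of all genes rose and 21.5% fell. Of these, 12 were called higher and 2 lower, beside 7.52% and 10.7% of all genes. The largest changes in it were those of ANGPTL4 (4.79), LOX (4.35) and RORA (2.93) on the higher side and of SPAG4 (-1.64) and CA12 (-1.17) on the lower side. RORA was scarce, at 0.360 to 0.424 CPM in the control and at 2.79 to 3.34 CPM in shEZH2. In shE2F1, 7 rose and 11 fell, with a median of -0.19, where 13.6% of all genes rose and 16.5% fell. Of these, 5 were called higher and 4 lower, beside 5.60% and 5.96% of all genes. DDIT4, a stress-induced inhibitor of mTOR (-3.15), CA12, a carbonic anhydrase like CA9 (-2.48), and FUT11 (-1.74) were lowest, and VLDLR (2.24), STC2 (1.72) and BHLHE41 (1.27) were highest. STC2 was scarce, at 0.720 to 1.27 CPM in the control and at 3.16 to 3.56 CPM in shE2F1. In the direct comparison, 20 of the 34 were higher in shEZH2 and 3 lower, with a median of 0.91, where 23.3% and 23.2% of all genes were. Of these, 15 were called higher and 2 lower, beside 10.4% and 12.9% of all genes.

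Of 21 HIF targets in glucose uptake, glycolysis and the handling of pyruvate and lactate, 17 fell and 0 rose in shE2F1. Over all genes, 16.5% fell and 13.6% rose. Of the 21, 8 were called lower, beside 5.96% of all genes. The largest falls were those of the glucose transporters SLC2A1 (-2.45) and SLC2A3 (-1.98) and of pyruvate kinase PKM (-1.96). In shEZH2, 11 fell and 2 rose (all genes 21.5% and 20.2%), with GAPDH (-3.01) and PFKL (-1.34) called lower and PDK1, a pyruvate dehydrogenase kinase, called higher (1.42). The medians were -0.74 in shE2F1 and -0.46 in shEZH2, the latter opposite in sign to that of the 34 other targets. With GSK126 all 21 changes were negative and none passed, where 51.6% of all changes were negative.

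Of 21 partners and relatives of the 10 genes (ligands and receptors of VEGF and adrenomedullin, paralogs of NDRG1, mitophagy genes), 16 were tested. The VEGF co-receptor NRP1 was called lower in shE2F1 (-1.07) and the VEGF receptor FLT1 higher (2.40). FLT1 was scarce, at 0.180 to 0.424 CPM in the control and at 1.39 to 1.94 CPM in shE2F1. In shEZH2, VEGFB (-1.57), the mitophagy kinase PINK1 (-1.16) and the autophagosome gene MAP1LC3B (-1.09) were called lower, and its relative GABARAPL1 higher (1.11). In that list 2 rose and 6 fell in shEZH2 (all genes 20.2% and 21.5%), and 4 rose and 4 fell in shE2F1 (all genes 13.6% and 16.5%).

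**Figure D4:**
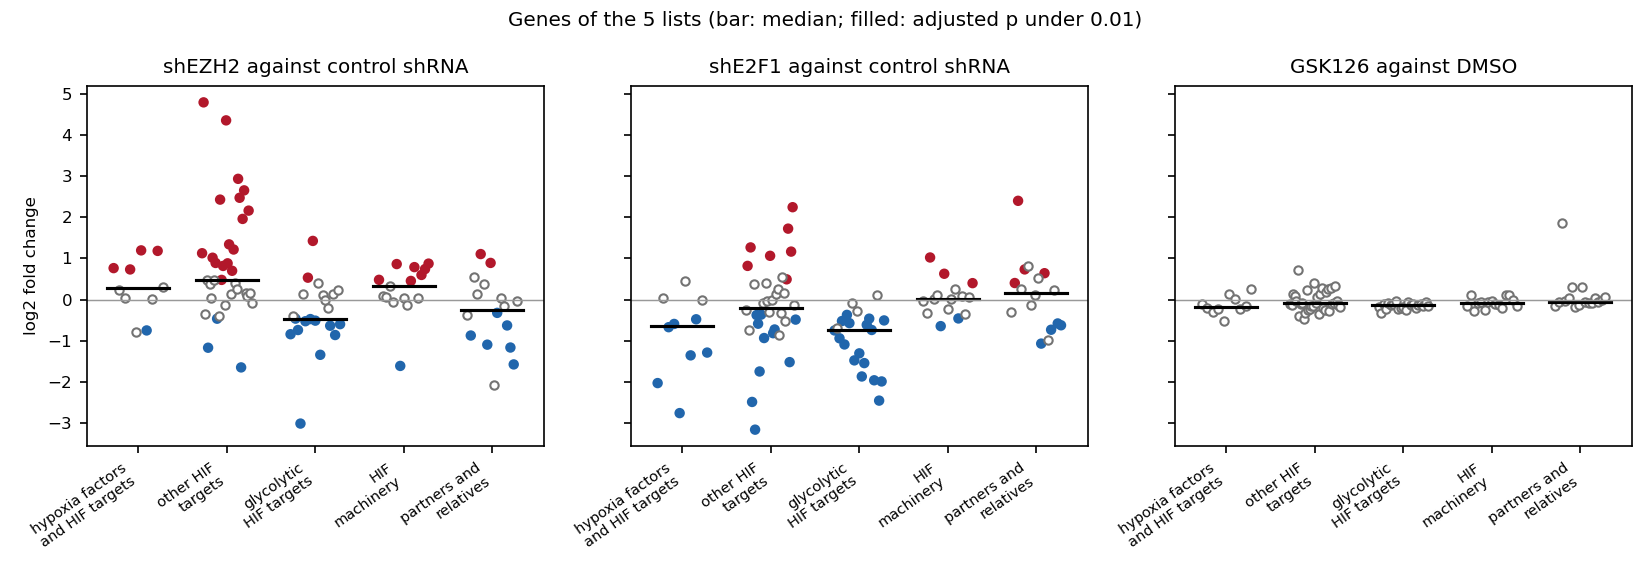
Log2 fold change of every tested gene in 5 lists, in 3 comparisons. Points are genes (filled at an adjusted p under 0.01, red higher and blue lower) and bars are medians. The medians of the 10 genes and of the other HIF targets lie above 0 in shEZH2 and below 0 in shE2F1, and the glycolytic targets lie mostly below 0 in both.

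CA9 had the widest range of group means (3.10 on the log2 scale), followed by ADM (2.78) and VEGFA (2.66), and BNIP3 had the narrowest (0.72). The genes most like CA9 over the 10 libraries, among 9471 with a mean of at least 200 counts, were PIAS3 (Pearson r = 0.99), EPHA2 (0.98), HMG20B (0.98), ACOT2 (0.98) and TEAD3 (0.98). These are the highest of many correlations over libraries that share 5 groups, and are given as a description.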

How the data were processed

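Poly(A) RNA was sequenced with a strand-specific kit. Per the submitters' processing notes, the authors used STAR 2.7.2b and RSEM 1.3.1. The study's methods name another version of STAR, with reads mapped to hg38 with Ensembl release 108. The deposited files hold RSEM expected counts per gene, which were used for the tests after rounding, TPM scaled by length and library by the authors, and effective lengths. Whether counting used strand is not stated. Of 18 sample records, 8 repeated another exactly, and each of the 10 distinct libraries was used once. The labels gave each library's group and replicate number.

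Counts were analysed in R 4.3.3 with edgeR 4.0.16 (filterByExpr, TMM, quasi-likelihood test, p adjusted by Benjamini-Hochberg across all tested genes). A first fit held the 6 knockdown libraries, another the 4 drug libraries, and a further fit all 10, for the difference between shEZH2 and GSK126. Intervals are 95% intervals of the fit. The thresholds, an adjusted p under 0.01 and 2-fold, are those of the study, which used DESeq2. The pipeline was tested on simulated data. At 0 counts, a level of up to 0.150 to 0.227 CPM is possible by library, from counting error only. Names and coordinates came from GENCODE release 44, which held 99.9% of the gene identifiers, and promoter sequences from RefSeq.

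All 10 genes are named in each comparison, with EZH2 and E2F1 once as a check. From each other list, at most the 3 called genes per direction with the largest change in a comparison are named, with their values in other comparisons where given, and the 5 genes most like the gene with the widest range. The genes, lists and tests were chosen with earlier results of these data known. Alternatives were DESeq2 (1.42.0), its size factors in edgeR, other filters (none, or a mean of at least 50 counts), an effective length offset, log2(TPM + 1) with limma 3.58.1, a correction for GC content and length by splines with 5 degrees of freedom, the replicate number as a block, other thresholds, other sets of libraries, and leaving out each replicate.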

Additional observations from a re-analysis of the deposited data

Results flagged for a closer look

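NDRG1 and BNIP3L changed differently when EZH2 was depleted and when it was inhibited, by a test of the difference itself in a fit of all 10 libraries with edgeR. The log2 change of NDRG1 was higher by 1.36 in shEZH2 than with GSK126 (adjusted p = 0.000852), and that of BNIP3L by 0.98 (adjusted p = 0.00180). NDRG1 was higher than both control libraries in both shEZH2 libraries. It was lower than both DMSO libraries in both GSK126 libraries, as were 13.2% of all genes tested, and that change did not pass. NDRG1 was at 154 and 115 CPM with the control hairpin and at 229 and 266 CPM with DMSO, a gap that was not tested. The difference of BNIP3L did not pass with effective length as an offset (0.64, adjusted p = 0.0112), and without 1 replicate it was 0.79 to 1.15. Across all genes this difference was related to GC content (r = -0.22 over 15765 genes, which are not independent replicates), and BNIP3L transcripts are 37.4% G and C. The part of the viral vector and of selection in these differences was not tested.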

How the results depend on the processing

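Of 760 values of the 10 genes under an alternative, 659 kept their direction and their side of an adjusted p of 0.01, 27 no longer passed, 44 newly passed, and 30 changed sign, none of them a change that had passed. With no requirement on fold the calls became 5 in shEZH2, 7 in shE2F1, 8 between the hairpins and 2 for shEZH2 against GSK126, and 18 of the other HIF targets in shE2F1. Over all genes, 6413 in shEZH2, 4620 in shE2F1 and 7140 between the hairpins then passed of 15373. For shEZH2 against GSK126 it was 3308 of 15773. Leaving out 1 replicate gave log2 changes in shEZH2 of 0.94 to 1.41 for NDRG1 and 0.91 to 1.58 for EGLN3. In shE2F1 they were -1.59 to -1.06 for EPAS1, -1.36 to -1.22 for VEGFA, -2.22 to -1.80 for ADM and -3.08 to -2.31 for CA9. The count for shEZH2 against GSK126 was 3 with DESeq2, its size factors or the GC correction (alone or with the block) and 2 with either other filter, the block or an adjusted p of 0.05. Over all 15773 genes, calls were 2176 in the main fit, 2128 with DESeq2, 2163 with its size factors and 2405 with the block. With the GC correction they were 1977 alone and 2039 with the block. They were 2725 of 29478 unfiltered and 2017 of 11919 at a mean of 50 counts. TPM moved the median of all genes by 0.15 in shEZH2, 0.17 in shE2F1 and 0.12 for shEZH2 against GSK126. In these, 1188 of 2016, 940 of 1322 and 788 of 1417 calls were then higher, against 1156 of 2803, 861 of 1777 and 809 of 2176 otherwise.

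Sign changes were these. HIF1A in shEZH2 was -0.15 with the GC correction, -0.14 with the block as well, and -0.0767 to 0.126 without 1 replicate. NDRG1 in shE2F1 was 0.00848 unfiltered, 0.0336 at a mean of 50 counts, 0.0326 with the GC correction, 0.0285 with the block added, 0.0923 in TPM, 0.000252 over 4 libraries, 0.000156 over 10, and -0.20 to 0.21 without 1 replicate. ANKRD37 in shE2F1 was -0.16 with the GC correction, also with the block, and -0.28 to 0.28 without 1 replicate, and -0.0550 to 0.509 between the hairpins. With GSK126, EPAS1 was -0.00888 with the length offset, -0.0120 with the GC correction, -0.0141 with the block added and -0.11 to 0.15 without 1 replicate, ADM -0.38 to 0.22 and EGLN3 -0.0296 to 0.281. For shEZH2 against GSK126, CA9 was 0.24 with the GC correction, 0.26 with the block added and -0.60 to 0.19 without 1 replicate, and VEGFA -0.0124 to 0.158. BNIP3 in shEZH2 was -0.11 to 0.19 without 1 replicate. The cause was not tested.

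The labels do not say that a replicate number marks a shared culture or day, and there are 2 pairs. The differences between replicates correlated at r = 0.70 between DMSO and GSK126 and at 0.03 to 0.19 among the knockdown groups (11919 genes). With the replicate block, which leaves 1 residual degree of freedom, GSK126 called 68 genes over 2-fold and 1164 of 14632 passed an adjusted p of 0.01. Of the 10 genes, HIF1A (-0.22), CA9 (-0.52), NDRG1 (-0.16), BNIP3 (-0.30, adjusted p = 6.95e-08), BNIP3L (-0.24) and VEGFA (0.25) passed it, and 0 were over 2-fold. With 2 libraries per group, changes of the rarest genes were the least precise.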
